A study of Mus musculus with 19 samples.

Results

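Gfi1 and Gfi1b are a pair of related zinc-finger repressors, and they are described here with 4 genes for the proteins through which they silence chromatin: Kdm1a, Rcor1, Hdac1 and Hdac2. The 6 genes were fixed by name. Their probes were found through the RefSeq accession the scanner files give for each probe, and the brightest probe of each gene, by mean log2 signal over all arrays, stands for it. All 6 genes were found, among 38391 genes and other transcripts with a probe on the array. Each was followed over 7 sorted populations of mouse bone marrow.

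The study measured total RNA from bone marrow of C57BL/6 mice aged 8 to 12 weeks on 19 single-colour arrays, an Agilent catalogue design extended by the authors with probes for long noncoding RNAs. No group carries a transgene, a deletion or a treatment in the labels. Lineage-negative cells with c-Kit and Sca1 (LSK, n = 3) are labelled as stem and multipotent progenitor cells. The other progenitors were lineage-negative and c-Kit-positive and carry no Sca1 (written Scal- in their labels). Common myeloid progenitors (CMP, n = 3) were low for CD16/32 and high for CD34. Megakaryocyte-erythroid progenitors (MEP, n = 3) were low for both, and granulocyte-macrophage progenitors (GMP, n = 2) were high for both. Early erythroblasts (n = 2) were positive for Ter119 with high forward scatter and high CD44, late erythroblasts (n = 3) had low scatter and intermediate CD44, and granulocytes (n = 3) were taken by Gr1 alone. The labels do not say whether replicates came from separate animals, pools or sorts, so p-values measure the spread between these arrays.

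Gfi1 and Gfi1b bind the same DNA letters through their zinc fingers and carry at their start a short peptide, the SNAG domain, which docks on the histone demethylase LSD1, the product of Kdm1a. LSD1 works in the CoREST complex, in which Rcor1 encodes the scaffold and Hdac1 and Hdac2 the histone deacetylases. In blood, Gfi1 is known for neutrophil development and for restraint of stem cell division, and Gfi1b for the making of red cells and platelets.

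The promoters of the repressor pair are shown because both proteins are known to bind and repress their own genes and each other's. RefSeq's GRCm38.p6 promoter table holds 5 of the 6 genes. The sequences below are the 250 bases before the annotated start, which for Gfi1 is the first of 2 listed. They lie on the minus strand of chr5:107725806-107726055 for Gfi1 and of chr2:28621983-28622232 for Gfi1b, and are written 5′ to 3′ with motif matches in capitals.
Gfi1: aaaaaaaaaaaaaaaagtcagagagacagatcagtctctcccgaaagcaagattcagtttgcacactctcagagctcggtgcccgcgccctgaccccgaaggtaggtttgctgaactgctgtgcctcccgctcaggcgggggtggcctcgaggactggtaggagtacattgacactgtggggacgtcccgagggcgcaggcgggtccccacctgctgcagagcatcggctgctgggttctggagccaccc
Gfi1b: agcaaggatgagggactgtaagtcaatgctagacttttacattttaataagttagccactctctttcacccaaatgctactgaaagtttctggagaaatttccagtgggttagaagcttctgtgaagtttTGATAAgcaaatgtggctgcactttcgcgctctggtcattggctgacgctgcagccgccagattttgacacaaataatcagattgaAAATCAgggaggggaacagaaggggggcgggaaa
The motifs searched on both strands were AAATCA, the core of the site bound by Gfi1 and Gfi1b, and TGATAA and AGATAA, which differ in their first letter only and are bound by GATA factors. The Gfi1b window holds AAATCA 34 bases and TGATAA 120 bases before the start, and these matches do not overlap. Among 32851 promoters of that table, 12.4% hold AAATCA, 7.94% TGATAA and 9.99% AGATAA in a window of this length. No match lies in the Gfi1 window shown or in the one before its second listed start (chr5:107724344-107724593). This says only that these letters are not in those windows. Such matches are a description of sequence, not of binding.

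Levels are given as log2 of the processed signal minus the 75th percentile of that signal on the same array, so 0 is the array's 75th percentile. A gene entered a comparison if all arrays of 1 or more of the groups compared detected it, meaning that the scanner software set it well above background. It is said to have risen or fallen where limma's Benjamini-Hochberg adjusted p over all features tested was under 0.05 and the higher group was detected throughout. Other settings named below are the percentile over probes detected on every array, quantile normalization, scaling by spike-in RNAs added to each sample, and normexp background correction. The level of a probe also depends on its sequence, so levels of different genes are not compared. The 5 erythroblast arrays were dimmer than the other 14, with a 75th percentile of 50.1 to 81.3 signal units against 266 to 607. Their 100 brightest probes held 28.4% to 39.1% of all signal, against 12.3% to 15.4% elsewhere. On every LSK array 8 of 8 stem cell markers were detected, on every erythroblast array 10 of 10 erythroid markers. On every GMP and granulocyte array 12 of 12 granulocytic markers were detected. The erythroid and granulocytic counts do not tell the sorts apart. All 10 erythroid markers were also detected on every CMP, MEP and granulocyte array, and all 12 granulocytic markers on every LSK, CMP and late erythroblast array. Summed, erythroid markers were highest in erythroblasts and granulocytic markers in granulocytes and GMP. No member was saturated, and Gfi1, Gfi1b, Kdm1a, Rcor1 and Hdac1 were well above background on 19 of 19 arrays, Hdac2 on 17.

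Relative to the 75th percentile, Gfi1 was highest in GMP and Gfi1b in early erythroblasts, though with spike-in scaling Gfi1b was highest in MEP, at a mean of 2.26 against -0.17 in early erythroblasts. Gfi1b was low in GMP and granulocytes, where Gfi1 was high. Gfi1 read 6.01 and 5.92 in GMP, 4.39, 4.40 and 4.55 in granulocytes, and 3.71, 4.24 and 4.17 in LSK. It was lower in CMP at 2.45, 3.22 and 3.05, in MEP at 2.22, 1.91 and 2.04 and in late erythroblasts at 1.80, 1.88 and 1.91. Early erythroblasts were lowest, at 0.53 and 1.53, and these arrays lay farther apart than those of any other population for this gene. Thus Gfi1 was high in the granulocytic populations and in LSK, and none of those arrays overlapped with any array of CMP, MEP or erythroblasts.

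Gfi1b read 6.36 and 5.86 in early erythroblasts, 5.53, 5.01 and 5.17 in late erythroblasts and 4.89, 5.40 and 4.78 in MEP. In CMP it was 5.02, 4.46 and 4.33, which overlapped with MEP. LSK was intermediate at 2.25, 2.81 and 2.58. GMP read 0.32 and -0.10 and granulocytes 0.49, 0.12 and 0.15, the lowest values of the 7 populations. The means of the 7 populations spanned 4.93 log2 units for Gfi1 (30.5-fold) and 6.00 for Gfi1b (63.9-fold), against a median of 2.94 over the 26223 features tested for variation. Over the 19 arrays the levels of the pair correlated with r = -0.94, and with r = -0.91 over the 14 arrays that are not erythroblasts. This is a description of arrays that share a few cell types.

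**Figure D1:**
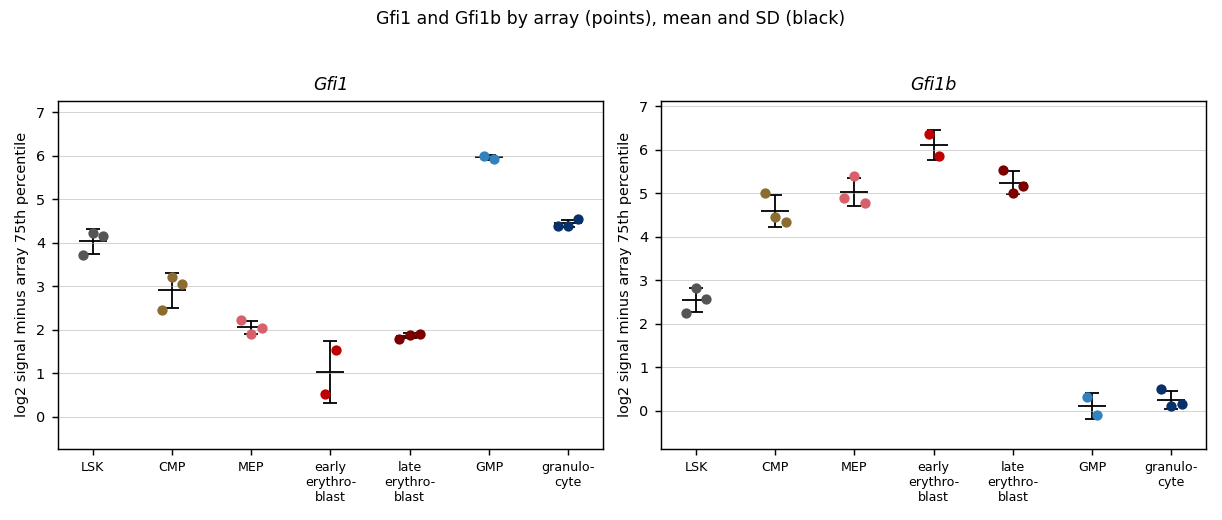
Gfi1 and Gfi1b levels (log2 signal minus the array's 75th percentile, vertical axis) in the 7 sorted populations. Points are arrays, and black bars are the mean and SD. Gfi1 stands at 5.92 to 6.01 in GMP, where Gfi1b stands at -0.10 to 0.32.

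The moderated F test over the 7 populations passed for all 6 genes, with adjusted p from 1.7e-11 for Gfi1b to 3.1e-07 for Hdac2. It also passed for 95.6% of the features tested. For Gfi1, GMP stood above granulocytes by 1.52 ± 0.26 (SE), and granulocytes were not separated from LSK by the test (adjusted p = 0.14). LSK stood above CMP. CMP and MEP (adjusted p = 0.055) and MEP and late erythroblasts (adjusted p = 0.44) were not separated, and late stood above early erythroblasts. For Gfi1b, early stood above late erythroblasts, while late erythroblasts, MEP and CMP formed a run in which no neighbours were separated (adjusted p = 0.40 and 0.41). CMP stood above LSK by 2.05 ± 0.24 and LSK above granulocytes by 2.30 ± 0.24, and granulocytes and GMP were not separated (adjusted p = 0.66). For pairs of neighbours outside the comparisons below, the share of all features called was 68% for granulocytes against LSK and 85.9% for late erythroblasts against MEP.

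Among the 7 comparisons of stages and branches, the split between MEP and GMP carried the largest differences of both repressors. In MEP against GMP, Gfi1 was lower by 3.91 ± 0.26 log2 (15-fold, 95% interval -4.47 to -3.35, adjusted p = 3.7e-08), and Gfi1b was higher by 4.91 ± 0.26 (30.1-fold, interval 4.35 to 5.47, adjusted p = 4.1e-09). Within the slide that held both populations the differences were -4.01 and 5.49, and with the slide as a block -3.83 and 5.16. Of the 6 genes 3 were called in this comparison, against a background of 32% of all features tested (13.6% higher and 18.5% lower in MEP). The third was Hdac1, which was lower in MEP by 0.27 ± 0.09 (adjusted p = 0.032), but stood higher in MEP by 0.15 with quantile normalization and by 0.50 with spike-in scaling. Hdac1 was -0.01 with the percentile over detected probes (adjusted p = 0.94), -0.23 with normexp (adjusted p = 0.13) and -0.28 with the slide as a block (adjusted p = 0.065). Its call was also lost without the first or second MEP array or either GMP array (adjusted p from 0.075 to 0.17). Kdm1a differed by 0.19 ± 0.12, Rcor1 by 0.25 ± 0.13 and Hdac2 by -0.12 ± 0.23, and none of these passed. With quantile normalization Kdm1a (0.46, adjusted p = 0.014) and Rcor1 (0.52, adjusted p = 0.0044) were called higher in MEP. They were also called higher with the percentile over detected probes, by 0.44 (adjusted p = 0.013) and 0.51 (adjusted p = 0.0037).

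From CMP to GMP, Gfi1 rose by 3.06 ± 0.26 (8.31-fold, adjusted p = 8.5e-07) and Gfi1b fell by 4.49 ± 0.26 (22.4-fold, adjusted p = 1.6e-08). They were the 2 members called, where 18% of the features tested were called (9.53% higher and 8.48% lower in GMP). Within the 1 slide that held both, Gfi1 differed by 2.70 and Gfi1b by -4.56. From CMP to MEP no member passed with limma, and 1 of the 6, Gfi1, had an unadjusted p under 0.05. Here the background was 4.52% (1.86% higher and 2.65% lower in MEP). Gfi1 differed by -0.85 ± 0.23 (adjusted p = 0.055, interval -1.35 to -0.35, -1.31 to -0.23 within 3 slides) with no overlap of the arrays, and without the first CMP array by -1.08 ± 0.23 (adjusted p = 0.015). That array was the lowest of its group for Gfi1 and the highest for Gfi1b, and its granulocytic markers summed to 914 times the array's 75th percentile, against 1447 and 1553 on the other CMP arrays. The part of such cells in the spread was not tested.

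In the step from LSK to CMP, Gfi1 fell by 1.13 ± 0.24 (2.19-fold, adjusted p = 0.0015) and Gfi1b rose by 2.05 ± 0.24 (4.15-fold, adjusted p = 9.8e-06). Rcor1 rose by 0.69 ± 0.12 (1.61-fold, adjusted p = 0.00027), and its second, dimmer probe by 0.26. Kdm1a was higher by 0.36 ± 0.11 (adjusted p = 0.015) and Hdac1 by 0.29 ± 0.08 (adjusted p = 0.012), with a median of all features tested of 0.17. With the percentile taken over detected probes that median was -0.15, Kdm1a stood at 0.03 and Hdac1 turned to -0.04, and with quantile normalization Kdm1a stood at 0.03 and Hdac1 at -0.18. In all, 5 of 6 members were called against a background of 36.8% (23.3% higher and 13.5% lower in CMP). Hdac2 differed by 0.44 ± 0.21 (adjusted p = 0.12), and without the second LSK array by 0.62 (adjusted p = 0.040). With spike-in scaling, which has a larger spread, only Gfi1b was called, and Gfi1 stood at -0.78 (adjusted p = 0.37) and Rcor1 at 1.04 (adjusted p = 0.22). Kdm1a lost its call without the first LSK or the second CMP array (adjusted p = 0.074 and 0.071). Within the 2 slides that held both populations, Gfi1 differed by -0.94 and -0.66 and Gfi1b by 1.88 and 2.08. Summed, the granulocytic markers were lower in CMP than in LSK, at 914 to 1553 against 1611 to 1761. Of that list Mpo, Elane, Prtn3 and Ctsg were higher in CMP and the others lower. Ctsg had a mean level of 8.38 in CMP against 6.66 in LSK, and S100a8 5.70 against 8.14. Erythroid markers summed higher in CMP, at 126 to 179 against 29.5 to 35.5. The part of cell makeup in these sums and in the results was not tested. In sorted bulk RNA fewer cells of a type and less RNA per cell cannot be told apart.

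From MEP to early erythroblasts the pair moved apart further, Gfi1b upward by 1.09 ± 0.26 (2.12-fold, adjusted p = 0.0015) and Gfi1 downward by 1.02 ± 0.26 (2.03-fold, adjusted p = 0.0022), although with spike-in scaling Gfi1b was lower by 2.42 instead. Spike-in scaling put the median of all features tested at -3.29, against 0.23 with the percentile. Both scalings shift all features of an array alike, so the place of Gfi1b above that median could not change between them. Gfi1b was 0.56 with quantile normalization (adjusted p = 0.058) and 0.45 with normexp (adjusted p = 0.11). Called members numbered 5 of 6, against 81.4% of all features (43.6% higher and 37.8% lower in early erythroblasts). Within the 1 slide that held both populations, Gfi1b differed by 0.46 and Gfi1 by -0.38. The Gfi1 call rested on the first early erythroblast array: without it the difference was -0.52 ± 0.26 (adjusted p = 0.080). On that array Gfi1 was 0.53 and the granulocytic markers summed to 646, and on the second array they were 1.53 and 1945.

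From early to late erythroblasts Gfi1b fell by 0.87 ± 0.26 (1.83-fold, adjusted p = 0.0099) and Gfi1 rose by 0.83 ± 0.26 (1.78-fold, adjusted p = 0.013), but with spike-in scaling Gfi1 was lower by 0.13. All 6 members were called, against 59.9% of the features tested (22.1% higher and 37.7% lower in late erythroblasts). Within 2 slides Gfi1 differed by 0.38 and 1.26 and Gfi1b by -0.69 and -0.83. Without the first early erythroblast array, Gfi1b differed by -0.62 (adjusted p = 0.13) and Gfi1 by 0.33 (adjusted p = 0.31). Gfi1b was -0.50 with the percentile over detected probes (adjusted p = 0.092) and with quantile normalization (adjusted p = 0.10), and Gfi1 0.49 with normexp (adjusted p = 0.086). The granulocytic markers summed to 2816 to 3159 in late erythroblasts and to 646 and 1945 in early ones. Late arrays stood above early ones for Gfi1 too, but among the late arrays the orders differed. The part of these markers in the Gfi1 difference was not tested.

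From GMP to granulocytes Gfi1 fell by 1.52 ± 0.26 (2.87-fold, adjusted p = 0.00013; with spike-in scaling -1.17, adjusted p = 0.12), and Gfi1b differed by 0.14 ± 0.26 (interval -0.43 to 0.70, adjusted p = 0.66). Called members numbered 4 of 6, all lower in granulocytes, where 66.6% of the features tested were called (27.7% higher and 38.9% lower). No slide held both populations. The granulocyte arrays also carried 7 of 7 B cell markers, which summed to 30.6 to 32.5 against 14.9 to 17.8 in GMP, and 8 of 8 macrophage markers at 76.2 to 78.3 against 9.37 to 9.42. They carried 10 of 10 erythroid markers, at 586 to 629 against 15.6 to 21 in GMP, and 7 of 7 markers of eosinophils, basophils and mast cells, at 357 to 414 against 156 to 208. The part of these cells in the granulocyte values was not tested.

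**Figure D2:**
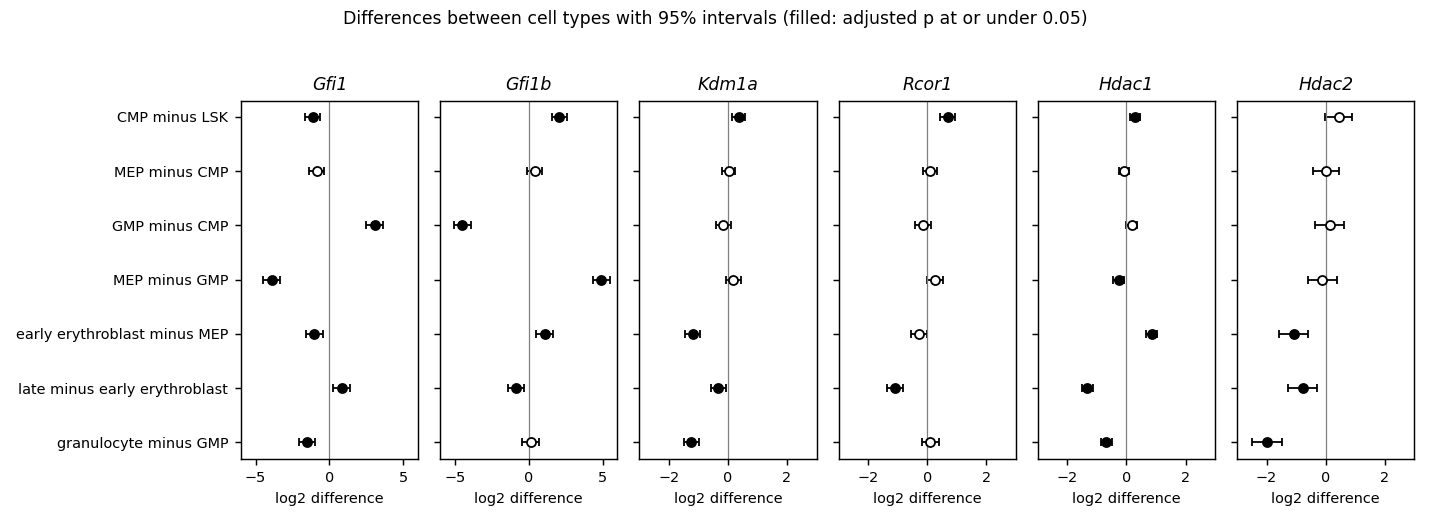
Differences in level (log2, horizontal axis) of the 6 genes in 7 comparisons, with 95% intervals. Filled points passed the test. Gfi1 and Gfi1b lie on opposite sides of 0 in MEP minus GMP, at -3.91 and 4.91, while Kdm1a, Rcor1 and Hdac2 have open points there.

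The 4 cofactor genes varied over a narrower range than the repressors, with spans of the population means of 1.52 log2 units for Kdm1a, 1.37 for Rcor1, 1.33 for Hdac1 and 1.99 for Hdac2. All 4 lie below the median span of 2.94. In the main setting each had its lowest mean in late erythroblasts, though for Kdm1a, Hdac1 and Hdac2 granulocytes were not separated from these. With the percentile over detected probes, granulocytes were lowest for Kdm1a, Hdac1 and Hdac2. Their means were -0.82, 2.09 and -6.17, against -0.76, 2.16 and -6.04 in late erythroblasts. Quantile normalization put granulocytes lowest for Kdm1a only, and spike-in scaling kept late erythroblasts lowest for all 4 genes. The dimmer probe of Rcor1 was lowest in LSK, at -1.51 against -1.42 in late erythroblasts. In the main setting, between CMP, MEP and GMP 1 difference passed among these 4 genes, that of Hdac1 in MEP against GMP. The Hdac1 difference did not pass with the percentile over detected probes, quantile normalization or spike-in scaling. With the first 2 of these, Kdm1a and Rcor1 were called higher in MEP instead. For neighbours in the order of levels of the 4 genes, all features were called at 30.1% for MEP and 43.9% for GMP against LSK. Against LSK they were also called at 79.6% for early and 81% for late erythroblasts, and at 70.4% for granulocytes against CMP. They were 81.4% for GMP and 78.9% for granulocytes against early erythroblasts, and 82.5% for granulocytes against late erythroblasts.

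Kdm1a, the demethylase that removes methyl groups from histone H3 lysine 4, read 3.65, 3.86 and 3.96 in LSK, 4.20, 4.29 and 4.07 in CMP, 4.10, 4.28 and 4.27 in MEP and 4.11 and 3.94 in GMP. Early erythroblasts read 3.10 and 2.94, late erythroblasts 2.72, 2.71 and 2.67, and granulocytes 2.78, 2.78 and 2.79. The stem cell and progenitor arrays thus lay above all arrays of maturing cells, with no overlap. MEP, CMP, GMP and LSK formed a run without separated neighbours, and LSK stood above early erythroblasts by 0.80 ± 0.12 (adjusted p = 1.8e-05). Kdm1a fell by 1.19 ± 0.12 from MEP to early erythroblasts (2.29-fold, adjusted p = 2.2e-07) and by 1.25 ± 0.12 from GMP to granulocytes (2.37-fold, adjusted p = 3.2e-07). With spike-in scaling the latter was -0.90 (adjusted p = 0.22). The further drop from early to late erythroblasts, of 0.32 ± 0.11 (adjusted p = 0.025), stood at 0.05 in the other direction with the percentile over detected probes. It was -0.03 with quantile normalization (adjusted p = 0.82) and -1.28 with spike-in scaling (adjusted p = 0.054). It was also lost without the first early (-0.24, adjusted p = 0.17) or the third late erythroblast array (-0.31, adjusted p = 0.054).

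Rcor1, the CoREST scaffold that links LSD1 to the deacetylases, read 3.42, 3.29 and 3.30 in LSK, 4.16, 3.95 and 3.98 in CMP, 4.02, 4.19 and 4.15 in MEP and 3.91 and 3.83 in GMP. Granulocytes read 4.01, 3.98 and 3.96 and early erythroblasts 3.89 and 3.80. Late erythroblasts were lowest at 3.02, 2.61 and 2.64. From MEP down to early erythroblasts 5 populations were not separated from their neighbours in the order, and LSK and late erythroblasts lay below them. Rcor1 fell by 1.09 ± 0.13 from early to late erythroblasts (2.12-fold, adjusted p = 4.3e-06). It differed by 0.11 ± 0.13 from GMP to granulocytes, with an interval of -0.16 to 0.38, where Kdm1a, Hdac1 and Hdac2 were lower, and by 0.41 with the percentile over detected probes (adjusted p = 0.0064).

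Rcor1 has a second, dimmer probe. From LSK to CMP the probes shared a direction but not a size, with 0.69 for the brighter and 0.26 for the dimmer. They disagreed in direction in 1 step. From MEP to early erythroblasts the brighter probe differed by -0.28 ± 0.13 (adjusted p = 0.055) and the dimmer by 0.87, so that the mean of both was 0.29 (adjusted p = 0.024). From early to late erythroblasts they differed by -1.09 and -1.16. Thus the direction from MEP to early erythroblasts depends on the probe of Rcor1. The brighter probe alone passed with the percentile over detected probes (-0.46, adjusted p = 0.0022), quantile normalization (-0.51, adjusted p = 0.0012) and normexp (-0.86, adjusted p = 6.6e-06), and without the first MEP array (-0.33, adjusted p = 0.046).

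Hdac1, a catalytic subunit shared by the CoREST, NuRD and Sin3 complexes, was highest in early erythroblasts at 6.91 and 6.99. GMP followed at 6.40 and 6.34, CMP at 6.18, 6.19 and 6.20, MEP at 6.08, 6.07 and 6.14 and LSK at 5.97, 5.86 and 5.88. Granulocytes read 5.65, 5.71 and 5.71 and late erythroblasts 5.64, 5.58 and 5.65. Early erythroblasts stood above GMP by 0.58 ± 0.10 (adjusted p = 5.7e-05), and GMP, CMP, MEP and LSK formed a run without separated neighbours. LSK stood above granulocytes by 0.21 ± 0.08 (adjusted p = 0.033), and granulocytes and late erythroblasts were not separated. Relative to the 75th percentile, Hdac1 rose by 0.85 ± 0.09 from MEP to early erythroblasts (1.80-fold, adjusted p = 4.4e-07) and fell by 1.33 ± 0.09 to late erythroblasts (2.51-fold, adjusted p = 4.1e-08); with spike-in scaling the first step was -2.66 instead, and with normexp it was 0.18 (adjusted p = 0.15). From GMP to granulocytes it fell by 0.68 ± 0.09 (1.60-fold, adjusted p = 9.6e-06; with spike-in scaling -0.33, adjusted p = 0.68). The other 2 probes of Hdac1 gave 0.77 and 0.59 for the first step, -1.44 and -1.47 for the second, and -0.71 and -0.60 for granulocytes against GMP.

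Hdac2, the close relative of Hdac1 that shares its complexes, was measured by a dim probe printed as 5 spots. It read -1.32, -0.79 and -1.36 in LSK, -0.48, -0.80 and -0.87 in CMP, -0.50, -0.69 and -0.93 in MEP and -0.59 and -0.58 in GMP. Early erythroblasts read -1.99 and -1.60, late erythroblasts -2.40, -3.03 and -2.30 and granulocytes -2.72, -2.45 and -2.54. It was well above background on only 1 of the 3 late erythroblast arrays. Hdac2 fell by 1.98 ± 0.23 from GMP to granulocytes (3.95-fold, adjusted p = 2.8e-06), the largest fall of the 6 genes in that step. It fell by 1.09 ± 0.23 from MEP to early erythroblasts (adjusted p = 0.00050) and by 0.78 ± 0.23 from early to late (adjusted p = 0.0087). With normexp background correction, which adds an offset to dim signals, the erythroblast steps were -0.05 (adjusted p = 0.73) and -0.05 (adjusted p = 0.82). The step from early to late was -0.41 with the percentile over detected probes (adjusted p = 0.12), -0.39 with the authors' values (adjusted p = 0.053) and -0.58 without the second early erythroblast array (adjusted p = 0.11).

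**Figure D3:**
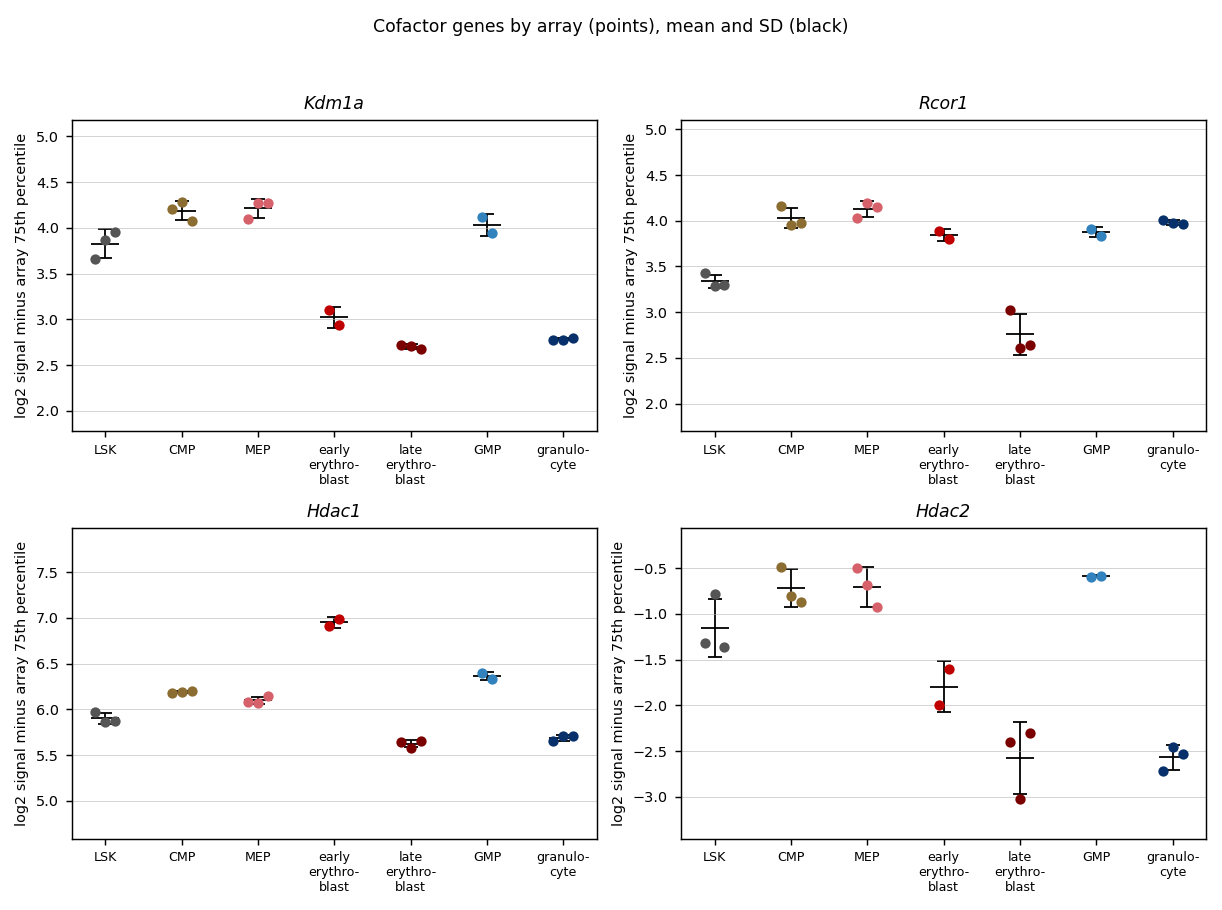
Levels of the 4 cofactor genes (log2 signal minus the array's 75th percentile, vertical axis, the same range of units in each panel) in the 7 populations. Points are arrays, and black bars are the mean and SD. Kdm1a and Hdac2 lie lower in erythroblasts and granulocytes than in the progenitors, Hdac1 peaks at 6.91 to 6.99 in early erythroblasts (with spike-in scaling it is lower there than in MEP), and Rcor1 is low in late erythroblasts and not in granulocytes.

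Whether maturation moved the genes differently along the red and the granulocytic path was tested as the change from MEP to late erythroblasts minus the change from GMP to granulocytes. Rcor1 differed by -1.48 ± 0.16 (adjusted p = 8.3e-07), since it was lower in late erythroblasts than in MEP and nearly level from GMP to granulocytes. This value is of the brighter probe, with means of 4.12 in MEP and 2.76 in late erythroblasts. The dimmer probe fell less, with means of -1.13 and -1.42, and differed by 0.26 from GMP to granulocytes. Gfi1 differed by 1.32 ± 0.34 (adjusted p = 0.0024), but with spike-in scaling by -3.49, and with the slide as a block it did not pass (1.12 ± 0.57, adjusted p = 0.10). Kdm1a (-0.27 ± 0.15), Hdac1 (0.20 ± 0.11) and Gfi1b (0.07 ± 0.34) did not pass; with normexp all 5 genes tested passed, with -0.98 for Kdm1a, -0.65 for Hdac1 and -0.80 for Gfi1b. The entry rule was stricter in this contrast, with 15099 features tested. Hdac2 was not tested because it was not detected on every late erythroblast array, although all MEP, GMP and granulocyte arrays detected it. The 2 calls among 5 genes compare with 78.2% of all features tested in this contrast (42.6% above 0 and 35.6% below).

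**Figure D4:**
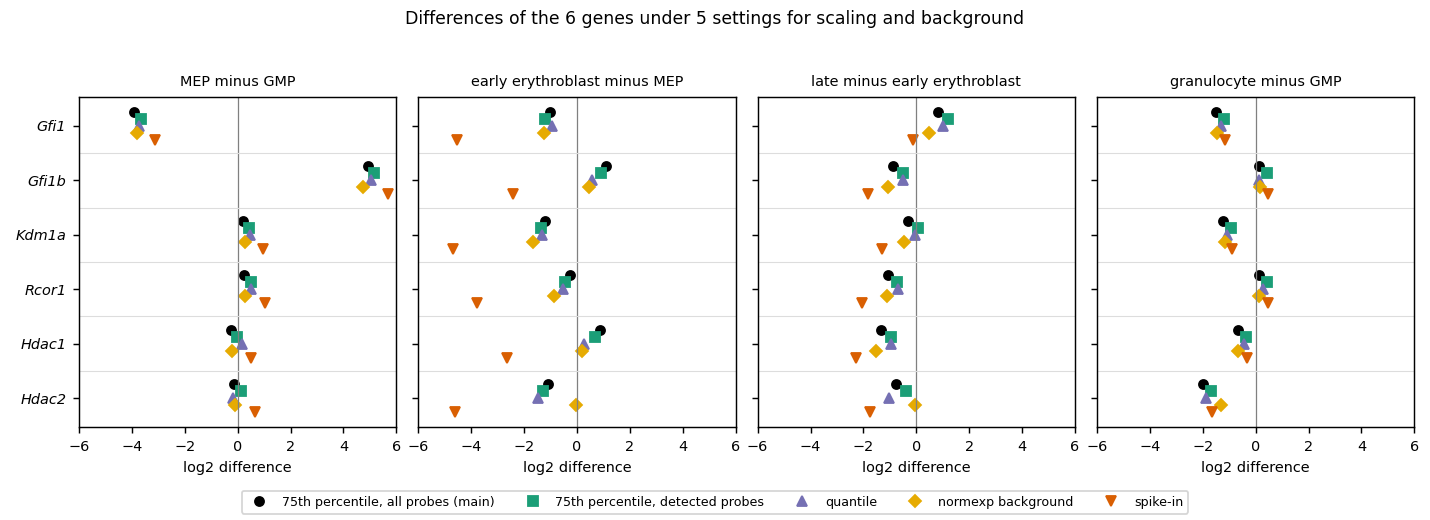
Differences in level (log2, horizontal axis) of the 6 genes in 4 comparisons under 5 settings for array scaling and background correction. In MEP minus GMP the points of Gfi1 (-3.91 to -3.14) and Gfi1b (4.74 to 5.68) keep their sides of 0. In early erythroblast minus MEP spike-in scaling lies at -2.42 for Gfi1b and -2.66 for Hdac1, where the main setting gives 1.09 and 0.85.

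Other genes of the corepressor complexes were counted from fixed lists. For these counts, the shares of all features called higher and lower were 23.3% and 13.5% in CMP against LSK, 9.53% and 8.48% in GMP against CMP, and 13.6% and 18.5% in MEP against GMP. They were 43.6% and 37.8% from MEP to early erythroblasts, 22.1% and 37.7% from early to late erythroblasts, and 27.7% and 38.9% from GMP to granulocytes. Of 12 further CoREST genes and paralogs, none passed from CMP to MEP and 4 were higher in MEP than in GMP with none lower (median 0.19, against -0.07 over all features). Rcor2, a paralog of Rcor1, was higher by 2.05 ± 0.51 and Gse1 by 1.09 ± 0.21. From MEP to early erythroblasts 5 of the 12 rose and 7 fell (median -1.82), but with spike-in scaling all 12 were lower. Zmym3 fell by 5.90 ± 0.24, and Kdm1b, the paralog of Kdm1a, was at least 14.8-fold lower. In granulocytes against GMP 1 rose and 5 fell, but 3 rose and 2 fell with the percentile over detected probes and 0 rose and 1 fell with spike-in scaling. In CMP against LSK, where that percentile gave 0 higher and 5 lower and quantile normalization 0 and 3, 1 rose (Ctbp1, by 0.45 ± 0.10, which stood at -0.02 with quantile normalization) and 1 fell (Phf21a, by 0.88 ± 0.16).

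In the NuRD complex, a nucleosome remodeling complex that also contains Hdac1 and Hdac2, 10 of 11 listed genes had a probe. From early to late erythroblasts 1 rose and 8 fell, with a median of -1.18 against -0.17 over all features, among them Mta1 by 1.82 ± 0.25 and Mta2 by 1.61 ± 0.16. In granulocytes against GMP 1 rose and 8 fell as well, with a median of -0.80 against -0.19, among them Mta1 by 2.11 ± 0.25 and the histone chaperone gene Rbbp7 by 1.72 ± 0.12, though with spike-in scaling 1 rose and 1 fell. From MEP to early erythroblasts 3 rose and 7 fell, and with spike-in scaling all 10 were lower. The risers were Rbbp4 (2.0 ± 0.16), Mbd2 (1.76 ± 0.17) and Gatad2b (1.46 ± 0.24). In MEP against GMP 1 was higher and 2 were lower. These counts were 4 and 0 with the percentile over detected probes or quantile normalization, and 1 and 0 with spike-in scaling. Mta3 was higher in MEP by 1.56 ± 0.17, Rbbp4 lower by 0.55 ± 0.16 and Rbbp7 lower by 0.48 ± 0.12.

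Sin3 complex genes, which share Hdac1 and Hdac2, moved both ways. Of 12 tested, 5 rose and 3 fell from MEP to early erythroblasts, 1 rose and 5 fell from early to late erythroblasts, and 3 rose and 2 fell from GMP to granulocytes. With spike-in scaling these counts became 0 and 12, 0 and 8, and 0 and 0, and with the percentile over detected probes the second became 4 and 4. Sin3a, the scaffold, fell by 1.53 ± 0.15 from early to late erythroblasts. Of 6 genes of the NCoR and SMRT complex, 1 rose and 5 fell from early to late erythroblasts (1 and 3 with the percentile over detected probes), and 1 rose and 3 fell from GMP to granulocytes (none with spike-in scaling, 2 and 1 with the percentile over detected probes). Hdac3, its deacetylase, which also stands in the list of other histone deacetylases, fell by 1.22 ± 0.17 in the first of these steps and by 0.89 ± 0.18 in the second.

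Among the 9 other histone deacetylases, 3 were higher and 1 lower in MEP than in GMP. Hdac11 was higher by at least 1.89-fold and Hdac7 by 2.03 ± 0.35, and Hdac5 was lower by 0.85 ± 0.14 log2, but by 0.08 with spike-in scaling, where 2 of the 9 were higher and none lower. With normexp Hdac11 was higher by only 0.20 log2. From GMP to granulocytes Hdac4 rose by 1.55 ± 0.14 while 4 of 8 fell, led by Hdac8 (-1.61 ± 0.23) and Hdac6 (-1.27 ± 0.15), though none with spike-in scaling. From early to late erythroblasts 1 rose and 5 fell of 7 (0 and 5 with spike-in scaling, 1 and 3 with the percentile over detected probes). Of 9 other SNAG domain genes at most 4 were tested in any comparison, since most were not detected. Snai1, a repressor known from mesenchymal cells, was at least 58.2-fold higher in granulocytes than in GMP, where all 3 arrays of granulocytes detected it.

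Binding partners of the pair included Gata1, the erythroid transcription factor that works with Gfi1b and is also in the erythroid marker list. Gata1 was higher in CMP than in LSK by 3.55 ± 0.20, higher in MEP than in GMP by 4.67 ± 0.22 and lower in late than in early erythroblasts by 0.97 ± 0.22. The direction of each was the same as for Gfi1b. Cbfa2t3, a corepressor of the ETO family, was higher in MEP than in GMP by 1.55 ± 0.18, and Spi1, the myeloid factor PU.1, was lower by 2.05 ± 0.71 (adjusted p = 0.040). From MEP to early erythroblasts 4 of 9 tested partners rose and 4 fell. Runx1t1 changed most and was at least 61.8-fold higher. Ehmt2, a histone H3 lysine 9 methyltransferase, fell by 4.41 ± 0.23 and Cbfa2t3 by 3.58 ± 0.18. Of the 11 listed partners, 3 were higher and 1 lower in MEP than in GMP among 8 tested, and none was lower with the percentile over detected probes, quantile normalization or spike-in scaling.

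Genes described in the literature as repressed by Gfi1b did not all stand low where Gfi1b was high. In MEP against GMP, 7 of 10 were higher and 1 lower (median 1.05), among them Tgfbr3 by 4.72 ± 0.36, Socs3 by 4.13 ± 0.43 and Gata2, the stem and progenitor GATA factor, by 3.30 ± 0.21. From MEP to early erythroblasts 1 rose and 8 fell (median -4.59, against 0.23 over all features). Gata2 was at least 188-fold lower there, Meis1, which both lists of repressed genes hold, at least 137-fold lower and the receptor gene Kit lower by 6.28 ± 0.17 log2. From early to late erythroblasts 3 of 6 tested rose, with Bcl2l1, a survival gene of the BCL2 family, up by 3.14 ± 0.10, while Rgs18 (0.91 ± 0.12) and Kit (0.86 ± 0.17) stood at -0.05 and -0.10 with spike-in scaling. From LSK to CMP none rose and 5 fell (0 and 1 with spike-in scaling).

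Among 15 genes described as repressed by Gfi1, 5 were higher and 6 lower in MEP than in GMP (median -0.51; 6 higher and 2 lower with spike-in scaling). The immediate early genes Egr1 and Egr2 were higher in MEP by 5.18 ± 0.74 and 4.90 ± 0.41, and Id1, an inhibitor of E proteins, was lower by 2.79 ± 0.56. From GMP to granulocytes 7 rose and 5 fell (9 and 3 with the percentile over detected probes), led by Egr1 (5.08 ± 0.74), Egr2 (4.93 ± 0.41) and Id2 (3.10 ± 0.46). From CMP to GMP 2 rose and 4 fell (0 and 4 with spike-in scaling), and from MEP to early erythroblasts 3 rose and 10 fell (1 and 13 with spike-in scaling). From LSK to CMP 4 rose and 5 fell (median -0.72, against 0.17 over all features). Irf8, the monocyte and dendritic cell factor, was higher in CMP than in LSK by 2.71 ± 0.22. Ets1 was lower by 2.64 ± 0.46 and Nab2 by 2.16 ± 0.33.

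The named genes whose levels followed Gfi1 most closely over the 19 arrays, of 14583 compared, were Gstm3 (Pearson r = 0.99), Gstm1 (0.98), B4galt6 (0.98), Il22ra2 (0.98) and Lamb3 (0.97). Gstm1, a glutathione transferase, had a mean of 6.49 in GMP, 4.91 in granulocytes, 3.90 in LSK and 0.78 in early erythroblasts, with CMP at 3.04, MEP at 2.34 and late erythroblasts at 2.07, the same order of populations as for Gfi1. For Gfi1b they were Septin8 (0.99), Reep6 (0.98), Igsf3 (0.98), Clca3a2 (0.97) and Samd14 (0.97). Septin8 had means of 6.55 in early erythroblasts, 5.17 in late erythroblasts, 5.02 in MEP, 4.89 in CMP, 2.61 in LSK, 0.65 in GMP and 0.14 in granulocytes. Among the members themselves, Kdm1a and Hdac2 were most alike (r = 0.94), with r = 0.95 over the 14 arrays that are not erythroblasts. Gfi1 and Kdm1a had r = 0.18, which was -0.42 over those 14 arrays. These values describe arrays that share 7 cell types and carry no test.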

How the data were processed

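Sorted bone marrow cells were measured on 19 single-colour Agilent arrays on 5 slides. Per the file headers, Feature Extraction 11.5.1.1 (protocol GE1_1105_Oct12, annotation build mm9) made the deposited scanner intensities, background-subtracted as gProcessedSignal. The authors' series values equal the deposited background-subtracted intensity (gBGSubSignal), with a largest relative difference of 4.85e-08.

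Of these, log2(gProcessedSignal) minus the array's 75th percentile was taken, without control spots or outlier flags. Spots of a probe were averaged and the brightest probe by mean stood for a gene. A model of 7 cell type means over all arrays (12 residual degrees of freedom) was fitted with limma 3.58.1 in R 4.3.3, and p-values were adjusted by Benjamini-Hochberg over the features tested in each comparison. The script was tested on simulated data.

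A gene not detected on any array of a group has only a bound, the bright group's mean over the higher of the dim probe's signal and the lowest detected signal. Such a bound holds for the main background and scaling only. With normexp, log2 differences lay below it, at -1.82 for Kdm1b, -5.59 for Gata2, -5.22 for Meis1 and 3.55 for Runx1t1 from MEP to early erythroblasts. Snai1 stood at 4.14 in granulocytes against GMP. Markers were summed as signal relative to the 75th percentile. Members, lists and tests were chosen with earlier results of these data known. For lists, the text names up to 3 called genes per comparison with the largest differences, and for likeness the 5 named genes with the highest Pearson r among those that passed the F test. Alternatives were other scalings (spike-in scaling used 7 probes), background correction, probe rule, detection filter, slide and replicate blocks, variance model, fewer arrays and leaving out each array. The number of arrays limits the precision.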

Additional observations from a re-analysis of the deposited data

Results flagged for a closer look

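In 2 members the change with maturation differed between the red and the granulocytic path by a test of the difference itself, the change from MEP to late erythroblasts minus that from GMP to granulocytes. For Gfi1 the difference was 1.32 (limma adjusted p = 0.0024), and for Rcor1 it was -1.48 (limma adjusted p = 8.3e-07). The Rcor1 value is of its brighter probe, and its dimmer probe fell less from MEP to late erythroblasts, from -1.13 to -1.42. The sign for Rcor1 was the same under all alternatives run for it, that for Gfi1 was turned by spike-in scaling, and with the slide as a block the Gfi1 difference did not pass (1.12, adjusted p = 0.10).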

How the results depend on the processing

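Of 794 values of members under the alternatives run, 683 kept their direction and their side of the threshold, 48 lost the call, 23 gained it, 14 turned with a call in at least 1 of the settings compared and 26 turned with a call in neither. Gfi1 and Gfi1b in MEP against GMP and in GMP against CMP kept direction and call in 64 of 64. The cause of the changes below was not tested.

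Members called from LSK to CMP were 3 with the percentile over detected probes, 3 with quantile normalization, 3 with only the arrays compared and 1 with spike-in scaling. From CMP to MEP 1 was called with normexp, the authors' values, the replicate block or a trended robust variance. From MEP to early erythroblasts 3 were called with normexp. From early to late erythroblasts 3 were called with the percentile over detected probes and 3 with only the arrays compared. From GMP to granulocytes 1 was called with spike-in scaling. In the contrast of the paths 5 were called with spike-in scaling, 5 with normexp and 1 with the slide as a block.

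Features called with spike-in scaling were 1732 (CMP against LSK), 28 (MEP against CMP), 1659 (GMP against CMP), 2998 (MEP against GMP) and 6654 (granulocytes against GMP). For MEP against CMP they were 2002 with normexp, 1598 with the authors' values, 644 without the detection filter, and 0 in limma with only the arrays compared, where 4268 had an unadjusted p under 0.05. Without the filter they were 29171 for early erythroblasts against MEP and 26982 for the contrast of the paths.

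Values turned for Hdac1 in CMP against LSK (-0.040 with the percentile over detected probes, -0.18 with quantile normalization) and in MEP against GMP (0.15 with quantile normalization, 0.50 with spike-in scaling). In early erythroblasts against MEP, spike-in scaling gave -2.42 for Gfi1b and -2.66 for Hdac1, and the mean of all probes gave 0.29 for Rcor1. In late against early erythroblasts, Kdm1a was 0.051 with the percentile over detected probes and Gfi1 -0.13 with spike-in scaling. In the contrast of the paths, spike-in scaling gave -3.49 for Gfi1, -4.74 for Gfi1b and -4.61 for Hdac1, and normexp -0.80 for Gfi1b and -0.65 for Hdac1.

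Leaving out 1 array at a time gave 0 to 1 members and 302 to 1233 features called for MEP against CMP, and 3 to 6 members for late against early erythroblasts, 3 of them without the first early erythroblast array. Kdm1a from LSK to CMP lost its call without the first LSK array (0.28, adjusted p = 0.074) or the second CMP array (0.31, adjusted p = 0.071).

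With the replicate number as a block, Gfi1 in MEP against CMP (-0.85, adjusted p = 0.049) and Rcor1 in early erythroblasts against MEP (-0.30, adjusted p = 0.042) gained a call. Deviations of arrays with the same number had a median correlation of -0.0012 over 52 pairs, so the numbers were not taken as pairs. Arrays on the same slide had a median correlation of 0.13 over 30 pairs, against -0.017 over 124 pairs on different slides. Among the members, the slide as a block ended the calls of Hdac1 in MEP against GMP (-0.28, adjusted p = 0.065) and of Gfi1 in the contrast of the paths.

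The share of called features that were higher was 63.4% for CMP against LSK, 32.3% with the percentile over detected probes, 51.4% with quantile normalization and 46.0% with spike-in scaling. For MEP against GMP these were 42.3%, 66.1%, 54.2% and 82.2%, and for late against early erythroblasts 37.0%, 55.6%, 42.6% and 2.51%. Spike-in scaling gave 3.19% for early erythroblasts against MEP, against 53.6%.

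Normexp used the median signal in place of the mean signal, which was not used here, as chosen after seeing the data. Hdac2, detected on 17 of 19 arrays, is limited by its dim probe.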
